A study of Drosophila melanogaster with 6 samples.

Results

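The genes described here encode proteins of the cytoplasmic ribosome, the particle that translates messenger RNA in the cell body. They were chosen by name: each feature of the deposited expression matrix with a single platform gene symbol that starts with RpL or RpS and a digit or capital letter was taken, so that mitochondrial ribosomal proteins (mRpL, mRpS) stayed out. The rule found 39 genes among 11325 features, each with 1 feature, and all 39 symbols are current in the RefSeq gene table. That table lists 92 fly genes with such symbols, and the other 53 were not analysed here. Of the 39 genes, 20 encode proteins named for the large subunit, 15 proteins named for the small subunit, and 4 carry the suffix -like.

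RNA came from wing imaginal discs of Drosophila melanogaster, the larval precursors of the adult wing and of the thorax around it, and was biotin-labelled and hybridised to 6 single-channel arrays. In the 3 samples of the Yki group (ap>YAP/Yki) the apterous driver, which is active in dorsal disc cells, expressed Yki (Yorkie, YAP in vertebrates), the transcriptional coactivator that Hippo signalling restrains and that drives tissue growth. The 3 samples of the Yki + pan RNAi group (ap>YAP/Yki+dTcf/Pan-RNAi) carried the same driver and transgene together with an RNAi construct for pan, the gene of dTcf, through which Wg (Wnt) signals reach their target genes. Discs of both groups, which share Yki expression, were dissected 7 days after transgene induction. Neither discs lacking the Yki transgene nor a control RNAi are among the 6 samples. The labels give neither the larvae's age nor the number of discs pooled, and nothing in them says that the samples came from separate crosses. The p-values therefore set the difference between the groups against the spread of these samples within a group, which may be technical alone. The disc genes nub (10.84 without and 9.72 with pan RNAi), vg (10.04 and 9.76) and ap (10.89 and 11.27) were measured at clear log2 levels in both groups. Of 8 wing disc markers measured, 6 were lower with pan RNAi at an adjusted p under 0.05 in limma, as were 13.4% of all features. Among the 6 were eyg (10.28 and 8.04) and pnr (9.12 and 7.43). The 2 that were higher were ap and tsh (10.6 and 11.66).

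A ribosome joins a small subunit, which holds the messenger RNA and reads its codons, to a large subunit, which forms peptide bonds and carries the exit tunnel for the new protein. Each subunit is a core of ribosomal RNA bound by many different proteins, most of them present once and made in balanced amounts. In Drosophila, heterozygous loss of many ribosomal protein genes gives the Minute phenotype, slow growth with short bristles, and in wing discs such cells are eliminated by faster-growing neighbours, a process called cell competition. Some ribosomal protein genes have a paralogue that is expressed mainly in the germline.

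Of the 39 genes, 8 fell and 0 rose at an adjusted p under 0.05 in limma, and 15 were lower and 0 higher at an unadjusted p under 0.05, a threshold that 19.1% of all features passed downward. The share that fell was 20.5%, where 13.4% of all features fell and 12.1% rose (9.61% and 18.5% with each array centred on its median). Those that fell were RpL34a, RpL29, RpL37A and RpL39 of the large subunit, RpS15Ab and RpS26 of the small subunit, and RpLP0-like and RpL22-like. Of these, RpL22-like had all 3 pan RNAi levels below 5.91, a value that every feature reaches in at least 3 arrays. It meets that value only through the Yki arrays, where it is high, so its fall adds no support to the count. No gene of the 39 reached the 2-fold change that the submitters also required, which 1.27% of features passed downward and 0.265% upward. The changes ran from −0.37 to 0.09 on the log2 scale, with a median of −0.08 beside a median of 0.03 over all 11303 features tested. The count of 8 depended on single arrays: it was 3 without Yki replicate 3, 3 without Yki + pan RNAi replicate 1, and 6 without any 1 of the other arrays.

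The estimate lay below 0 for 34 of the 39 genes (87.2%) and for 4833 of 11303 features overall. In 20 genes (51.3%) all 3 levels with pan RNAi lay below all 3 levels without it, against 21.6% of all features, and in 1 gene, RpLP2, they lay above, against 23.4%. RpL22-like, whose fall gives no support, is counted in both the 34 and the 20. Groups that did not overlap in either direction made up 44.9% of all features. The sign of the small estimates depended on the scaling of the arrays: with each array centred on its median, 24 genes lay below 0 and 15 above, the median became −0.03, and 6 of the 8 calls remained. With quantile normalization 30 lay below and 9 above, and 12.1% of all features fell and 14.4% rose. Again 8 genes fell, but with RpS19b, at a mean level of 5.94 near the lowest in the table, in place of RpL37A. RpL22-like stayed among them.

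**Figure D1:**
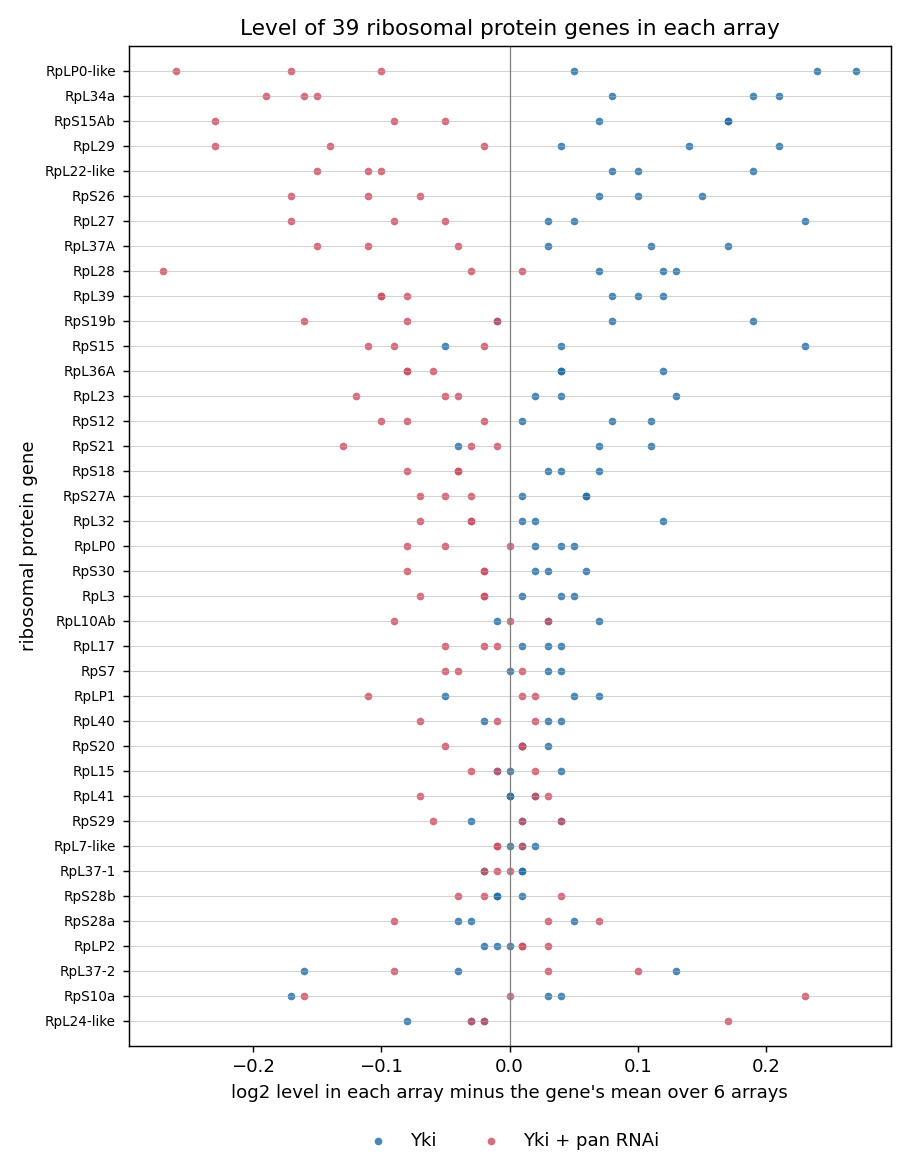
Each row is 1 of the 39 ribosomal protein genes and each point 1 array, plotted as the log2 level minus the gene's mean over the 6 arrays (blue, Yki; red, Yki + pan RNAi; rows ordered by change). The groups are apart in the upper rows and mixed in the lower ones, and no point lies more than 0.3 from its gene's mean.

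The arrays of a group were close to each other. The within-group standard deviation (SD) of the 39 genes had a median of 0.045, with a range of 0.009 to 0.16, and its median over all features was 0.082. Measured as the median deviation from each gene's mean, the 39 genes stood at 0.04, 0.02 and 0.07 in Yki replicates 1, 2 and 3 and at −0.02, −0.04 and −0.07 in Yki + pan RNAi replicates 1, 2 and 3. The groups did not overlap in this measure on the deposited scale. Over all features the measure was −0.01 in each Yki array and 0.00 to 0.01 in the pan RNAi arrays, which did not overlap either. Array medians ran from 8.41 to 8.515, and centring on them took the median change of the 39 genes to −0.03. Yki replicate 2 lay nearest to the pan RNAi arrays. That array held the lowest of the 3 Yki levels for 28 of the 39 genes, where it held the lowest for 30.2% of all features, and Yki replicate 3 held the highest for 22 of the 39 and for 35.0% of all features. Without Yki replicate 2 the median change was −0.09.

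Among the 20 large subunit genes the largest fall was that of RpL34a. Its log2 level was 9.69, 9.58 and 9.71 in the Yki arrays and 9.35, 9.34 and 9.31 in the pan RNAi arrays. Each pan RNAi array was thus below each Yki array, and the difference was −0.33 ± 0.05 (SE; limma adjusted p = 0.00548), a 1.26-fold lower level. This call held when any 1 array was left out (adjusted p = 0.0115 to 0.0235).

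RpL39 encodes a short protein that lines the exit tunnel. Its levels were 11.03, 11.01 and 11.05 without and 10.85, 10.83 and 10.83 with pan RNAi, so that it was the gene with the tightest arrays among those that fell (−0.19 ± 0.04, limma adjusted p = 0.0163). The call was lost on leaving out Yki replicate 3 (adjusted p = 0.0571), Yki + pan RNAi replicate 1 (0.0511) or 2 (0.0503), and with median centring (0.0639), with changes of −0.20 to −0.14 in these fits.

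RpL29 was at 10.27, 10.10 and 10.20 without and at 9.92, 10.04 and 9.83 with pan RNAi (−0.26 ± 0.07, limma adjusted p = 0.0372). The highest pan RNAi array and the lowest Yki array were close, and the call ended on leaving out 4 of the 6 arrays in turn, namely Yki replicates 1 and 3 and Yki + pan RNAi replicates 1 and 3 (adjusted p up to 0.104). RpL37A, a zinc-binding protein, was at 11.34, 11.26 and 11.40 without and at 11.19, 11.08 and 11.12 with pan RNAi (−0.20 ± 0.06, limma adjusted p = 0.0377). Its call held only when Yki replicate 2 was the array left out (0.0484) and ended without any other (up to 0.109) and with median centring (−0.15, adjusted p = 0.102).

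The remaining 16 large subunit genes did not pass the threshold. RpL27 (12.33, 12.13 and 12.15 against 11.93, 12.01 and 12.05) and RpL28 (10.08, 10.02 and 10.07 against 9.96, 9.68 and 9.92) had estimates as large as those of RpL37A, −0.21 ± 0.07 and −0.20 ± 0.08, with wider spread (limma adjusted p = 0.0653 and 0.0973). RpL36A, which lies near the site where spent transfer RNA leaves (−0.14 ± 0.05), and RpL23, which lies on the face towards the small subunit (−0.13 ± 0.05), also had groups that did not overlap. RpL32, whose transcript, often called rp49, is a common reference in fly RT-qPCR, was at 11.14, 11.03 and 11.04 without and at 10.99, 10.99 and 10.95 with pan RNAi. This is a difference of −0.09 ± 0.05 (limma adjusted p = 0.212), with a 95% interval of −0.21 to 0.02.

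Other large subunit genes had smaller estimates. RpL3, close to the peptidyl transferase centre, was at −0.07 ± 0.04, RpL10Ab, of the stalk by which transfer RNA leaves, at −0.06 ± 0.05, and RpL17, at the narrowest part of the tunnel, at −0.05 ± 0.04. The proteins of the acidic stalk, which recruits elongation factors, did not pass the threshold: RpLP0, its base, was at −0.08 ± 0.04, RpLP1 at −0.05 ± 0.06 and RpLP2 at 0.02 ± 0.04, with limma adjusted p-values of 0.211, 0.601 and 0.709. RpLP2 was at 13.49, 13.47 and 13.48 without and at 13.50, 13.50 and 13.52 with pan RNAi. RpL40, made as a fusion with ubiquitin, was at −0.04 ± 0.05, RpL15 at −0.02 ± 0.04, and RpL41, a very short peptide between the subunits, at −0.01 ± 0.05.

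Of the small subunit genes, RpS15Ab and RpS26 fell. RpS26, whose protein lies where the messenger RNA leaves the small subunit, was at 11.35, 11.32 and 11.40 without and at 11.18, 11.14 and 11.08 with pan RNAi (−0.22 ± 0.05, limma adjusted p = 0.0173). No pan RNAi array reached the Yki arrays, and the call ended without Yki replicate 3 (0.0605). RpS15Ab was at 11.79, 11.89 and 11.89 without and at 11.63, 11.67 and 11.49 with pan RNAi (−0.26 ± 0.06, limma adjusted p = 0.0228). It lost the call without Yki replicate 2 (0.076), Yki replicate 3 (0.0737) or Yki + pan RNAi replicate 1 (0.0569). Its paralogue RpS15Aa, like those of RpL34a, RpS28a and RpL37-1, could share hybridisation signal with it, which was not examined here because probe sequences were not used.

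RpS12, which in Drosophila is needed for the elimination of Minute cells by their neighbours, was at 12.46, 12.53 and 12.56 without and at 12.43, 12.37 and 12.35 with pan RNAi. The groups did not overlap, and the difference of −0.13 ± 0.05 did not pass (limma adjusted p = 0.0874). RpS15, in the head of the subunit, was at −0.15 ± 0.08, RpS21 at −0.10 ± 0.06 and RpS7 at −0.05 ± 0.04, and their groups overlapped. The fusion genes RpS27A, which also yields ubiquitin, and RpS30, which also yields a ubiquitin-like protein, were at −0.09 ± 0.04 and −0.08 ± 0.04 with groups that did not overlap.

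The subunits had close medians. The median change was −0.08 over the 20 large subunit genes and −0.09 over the 15 small subunit genes. Of them 4 and 2 fell, and the groups were apart and lower in 12 and 6. Of all features 13.4% fell, a share that the small subunit genes did not exceed, and 21.6% had groups apart and lower. Among features with a mean between 8 and 1 unit below the highest value on any array, these shares were 18.2% and 29.5%. Leaving out genes with a mean level under 8, the medians were −0.08 over 19 and −0.10 over 12 genes. The median deviations per array ran in parallel, from 0.02 to 0.06 in Yki and −0.07 to −0.01 in pan RNAi arrays for the large subunit, and from 0.01 to 0.07 and −0.06 to −0.02 for the small one. The difference between the subunits was not tested, since genes are not replicates.

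**Figure D2:**
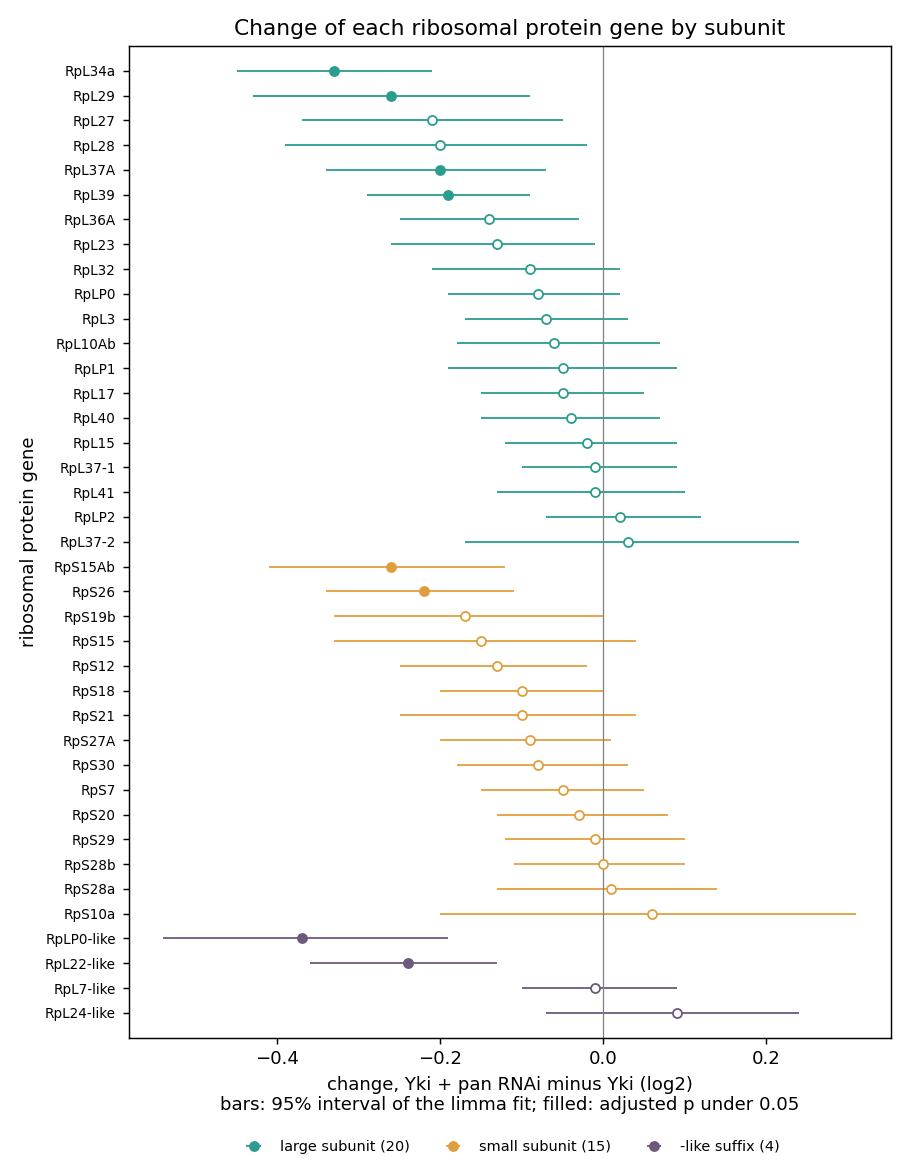
Each row gives the change of 1 gene between Yki + pan RNAi and Yki discs on the log2 scale, with its 95% interval from the limma fit, coloured by subunit or -like suffix; filled points passed an adjusted p of 0.05. Points of the large and the small subunit spread over nearly the same range, −0.33 to 0.03 and −0.26 to 0.06, and the filled ones all lie below 0.

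The level of a feature bears on how far a change can show. The highest value on any array was 14.06, and 7 of the 39 genes had means within 1 unit of it: RpS18, RpS20, RpS29, RpL37-1, RpL41, RpLP0 and RpLP2, at 13.15 to 13.62. Array signals that approach their upper end can respond less than proportionally to transcript. Of these 7 genes 0 fell or rose at an adjusted p under 0.05 in limma (1 at an unadjusted p under 0.05, RpS18, and 1 when the variance prior followed the level), with a median change of −0.01. All 78 features of this level had 7.69% lower and 3.85% higher calls. For each of the 7 genes the 95% interval lay within 0.25 of 0 on this scale. RpL37-1 was at 13.61, 13.58 and 13.61 without and at 13.60, 13.58 and 13.59 with pan RNAi (−0.01, interval −0.10 to 0.09), which does not show equal amounts of transcript.

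Between a mean of 8 and that level lay 27 genes, of which 7 fell and 0 rose. That is 25.9%, where 18.2% of 6329 features of this range fell and 15.8% rose. Here the groups were apart and lower in 17 genes (63.0%), against 29.5% of the features, and the estimate was below 0 for 26 of 27. The exception was RpL24-like, joined with median centring by RpS7, RpLP1, RpL40, RpL15, RpL7-like and RpS28b. The median change in this range was −0.10 for the ribosomal protein genes and 0.00 for the features.

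**Figure D3:**
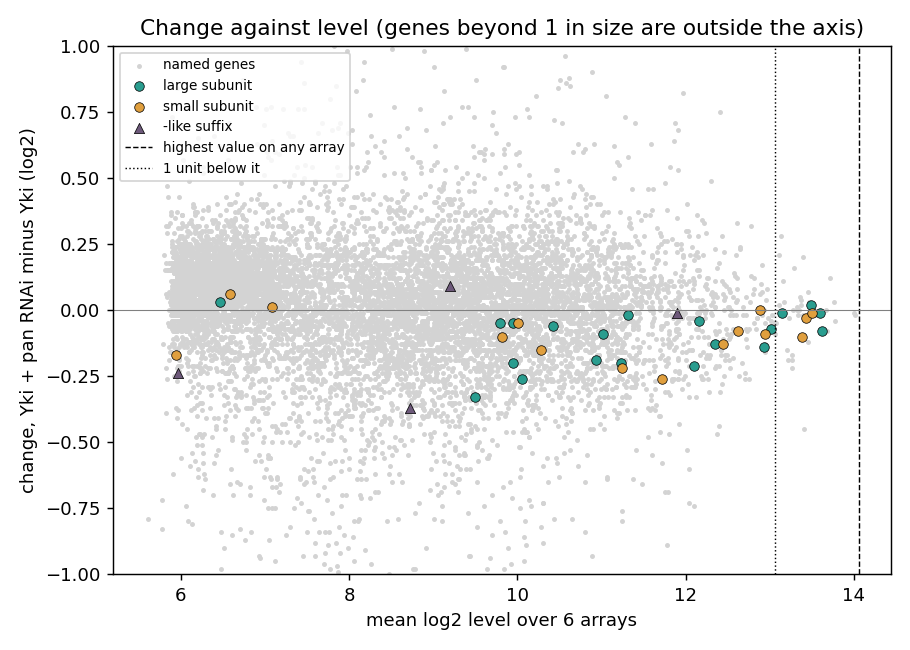
The change between the groups (log2) is plotted against the mean log2 level over 6 arrays for named genes (grey) and ribosomal protein genes (green, large subunit; orange, small subunit; triangles, -like suffix); vertical lines mark the highest value on any array, 14.06, and 1 unit below it. The ribosomal protein genes between 8 and the dotted line lie below 0 on the deposited scale except for RpL24-like (with median centring, RpS7, RpLP1, RpL40, RpL15, RpL7-like and RpS28b lie above 0 too), and those to its right lie close to 0.

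At the other end, 5 genes had a mean level of 5.94 to 7.09, near the lowest levels in the table, in which every feature reaches 5.91 in at least 3 arrays. These are RpL22-like, RpS19b, RpL37-2, RpS10a and RpS28a, all of them paralogues of another ribosomal protein gene. RpL22-like, known in Drosophila from the testis, was at 6.16, 6.05 and 6.07 without and at 5.82, 5.87 and 5.86 with pan RNAi (−0.24 ± 0.05, limma adjusted p = 0.0135, or 0.0524 without Yki + pan RNAi replicate 1). Its 3 pan RNAi values lie below 5.91, so RpL22-like meets that level only through the Yki arrays, where it is high, and its fall gives no support beside the other 7. RpS19b, known from the female germline, was at 5.93, 6.13 and 6.02 and at 5.93, 5.78 and 5.86, with overlapping groups (limma adjusted p = 0.119). Of 4896 features with a mean under 8, 7.39% fell and 7.48% rose. Of 5 measured germline and testis markers (bgcn, AGO3, sa, bam and mia) 0 changed at an adjusted p under 0.05 in limma (1 at an unadjusted p under 0.05, mia, higher with pan RNAi). The linear signals of these markers summed to 812 to 842 in Yki discs and to 879 to 920 after pan RNAi. Most of each sum came from mia, at 8.87 without and 9.02 with pan RNAi. The group means of AGO3, sa, bgcn and bam lay between 5.91 and 7.18.

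The 4 genes with the suffix -like had changes of different size. For 3 of them the yeast counterpart is not a ribosomal protein in the finished ribosome but a factor on precursors of the large subunit: Mrt4 for RpLP0-like, Rlp24 for RpL24-like and Rlp7 for RpL7-like. RpLP0-like was at 8.77, 8.96 and 8.99 without and at 8.55, 8.46 and 8.62 with pan RNAi, the largest estimate of the 39 (−0.37 ± 0.07, limma adjusted p = 0.0135, or 0.0503 without Yki replicate 2). RpL24-like was at 9.17, 9.12 and 9.18 without and at 9.37, 9.18 and 9.17 with pan RNAi, with overlapping groups (0.09 ± 0.06, limma adjusted p = 0.363). RpL7-like stayed within 11.89 to 11.92 in all 6 arrays (interval −0.10 to 0.09).

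For 3 genes with a low level or the suffix -like the main gene was also measured. RpLP0-like lay lower against RpLP0 with pan RNAi in all 3 arrays, with a difference of −0.28 between the changes of the genes, and the exact two-sided permutation p of 0.10 (0.30 adjusted over 3 pairs) is the smallest that 3 against 3 arrays allow. The level of RpLP0, 13.62, is among those near the top of the range. RpL37-2 against RpL37-1 and RpS28a against RpS28b differed by 0.04 and 0.01 with overlapping groups (exact p = 0.70 and 1.0), and RpL37-1, at 13.60, is also near the top of the range, which limits what the first of these shows. The other 31 genes, without the suffix and with a mean of at least 8, had 6 falls (19.4%) and a median of −0.09. Of all features 13.4% fell, and 18.2% of those between a mean of 8 and 1 unit below the highest value.

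Other genes around the ribosome were followed through lists chosen with earlier results of these data known. Their counts stand beside 13.4% of all features that fell and 12.1% that rose, or 9.61% and 18.5% with median centring, and lists this short give coarse shares. Of 4 measured ribosome-bound factors 2 fell, the nascent chain binding genes bic (−0.32 ± 0.08, limma adjusted p = 0.0266) and Nacalpha (−0.20 ± 0.04, 0.0203), each losing the call on leaving out 4 of the 6 arrays in turn (up to 0.0847 and 0.0677) and on median centring (0.0681 and 0.0704), while Rack1, a scaffold on the small subunit, was at −0.05 ± 0.04. Of 4 elongation factor genes 2 fell, eEF1alpha2 from 10.20 to 9.19 (−1.02 ± 0.11, limma adjusted p = 0.00149) and eEF1delta (−0.16 ± 0.05, 0.0495), whose call was lost on leaving out any 1 array (0.0502 to 0.146) and with median centring (0.195) or quantile normalization (0.0637). Of 28 genes in the ribosome assembly list 9 fell and 2 rose, with a median of −0.12, and 5 fell without Yki replicate 2, without Yki replicate 3 or with median centring, while 1 rose without Yki replicate 2 or 3 or without Yki + pan RNAi replicate 1 or 3. The falls with the lowest p were those of Nop60B (−0.41 ± 0.05) and NHP2 (−0.36 ± 0.04), which modify ribosomal RNA, of Surf6 (−0.24 ± 0.04) and of nclb (−0.33 ± 0.06, limma adjusted p = 0.00872). Of the genes that rose, Non1, which encodes a nucleolar GTPase, went from 12.44 to 12.77 (0.33 ± 0.06, limma adjusted p = 0.0103). That list also holds hay and RIC-3, which are not known as assembly genes, and RIC-3 is the other gene that rose (0.23 ± 0.05).

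Among 7 genes of ribosomal RNA transcription, the RNA polymerase I subunit genes Polr1F (−0.36 ± 0.06, limma adjusted p = 0.00699) and Polr1E (−0.18 ± 0.04, 0.0272, or up to 0.0903 without 1 array) fell and 0 rose. The Polr1E call was lost on leaving out 4 of the 6 arrays in turn and with median centring (−0.12, 0.121) or quantile normalization (−0.13, 0.128). Of 10 genes listed for transcription of ribosomal protein genes, 1 rose, mio (0.28 ± 0.05, limma adjusted p = 0.00797), which is known as a regulator of TOR signalling, and 0 fell. The promoter factors Dref, M1BP and Trf2 were at 0.12 ± 0.06, −0.04 ± 0.05 and 0.10 ± 0.05 and did not pass. In the list of the Minute response and cell competition 3 of 11 measured genes rose and 0 fell. Among those that rose were Irbp18, the partner of the Minute response factor Xrp1 (0.46 ± 0.08, limma adjusted p = 0.00754), and Irbp, a DNA repair gene (0.62 ± 0.09, 0.00473). The glutathione transferase gene GstE6 rose too (0.41 ± 0.12, limma adjusted p = 0.0438), a call lost on leaving out 5 of the 6 arrays in turn (up to 0.127). GstD1, Nup44A, puc, fwe, PPP1R15, Gcn2, crc and PEK did not pass, with changes of −0.14 to 0.02. Xrp1 itself was not among the 11. Of 11 genes of growth signalling to the ribosome, S6k, whose kinase phosphorylates the small subunit, rose (0.16 ± 0.04, limma adjusted p = 0.036, lost on leaving out any 1 array, up to 0.117) and foxo fell (−0.28 ± 0.05, 0.00848).

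The proteins of the mitochondrial ribosome were measured in the same arrays. Of 68 mRpL and mRpS genes 31 fell and 0 rose (45.6%), with a median of −0.19, compared with 8 of 39 and −0.08 here, where 13.4% of all features fell and 12.1% rose. Their mean levels ran from 5.95 to 11.18, so that none lay near the top of the range, unlike 7 of the 39. The difference between the sets was not tested.

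**Figure D4:**
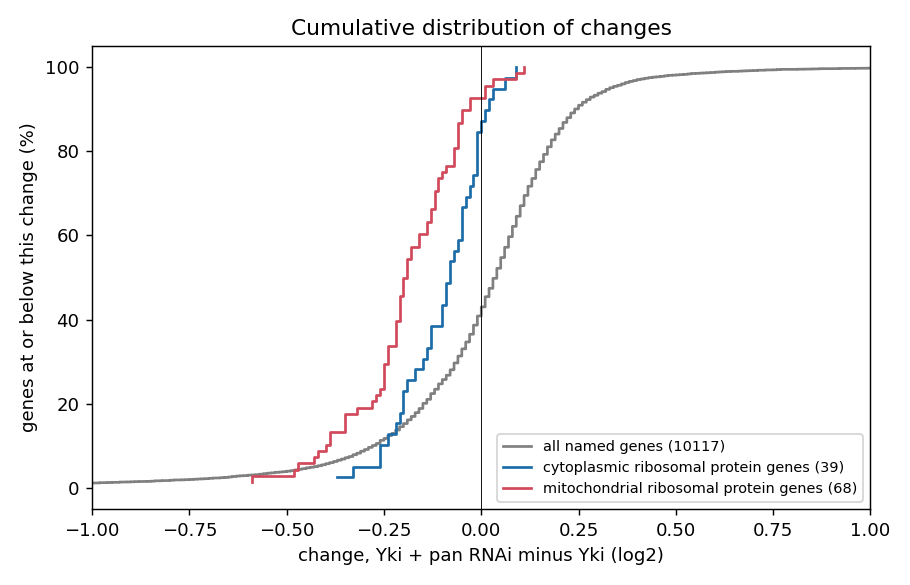
Cumulative share of genes (percent) at or below each change (log2, Yki + pan RNAi minus Yki) for 39 cytoplasmic ribosomal protein genes, 68 mitochondrial ones and 10117 named genes. The curve of the cytoplasmic genes is steep, with all changes between −0.37 and 0.09 and a median of −0.08, and the mitochondrial genes have a median of −0.19.

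In whole discs, fewer cells of a type and less RNA per cell cannot be told apart. Markers of several other cell types moved between the groups. Lower and higher here mean an adjusted p under 0.05 in limma, which 13.4% of all features passed downward and 12.1% upward. All 3 measured myoblast markers were lower with pan RNAi, with a summed linear signal of 2051 to 2263 without and 970 to 1108 with it, as were 3 of 4 tracheal markers (12225 to 12830 and 9432 to 10166). The tracheal marker btl, at 7.22 without and 6.85 with pan RNAi, was a small part of that sum. Gasp, serp and verm stood at 11.69, 11.9 and 12.33 without pan RNAi, above the disc gene nub, and which cells expressed them was not tested. Of 6 haemocyte markers 4 were higher (697 to 856 and 1053 to 1256). Of 5 neuron and glia markers 1 was higher, elav (9.81 and 10.06). It gave most of their sum, 1344 to 1362 and 1494 to 1679. Of the 2 fat body and 2 muscle markers 0 changed at an adjusted p under 0.05 in limma (1 at an unadjusted p under 0.05, Lsp2, lower), with sums of 221 to 536 and 171 to 199 for fat body and of 132 to 162 and 142 to 174 for muscle. Of 2 salivary gland markers 1 was lower, eyg, which is also a disc gene, and the sum was 1275 to 1415 and 283 to 406. Of 8 wing disc markers 6 were lower and 2 higher (13511 to 13778 and 10303 to 11096). The part of these shifts in the levels of ribosomal protein genes was not tested.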

How the data were processed

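The authors deposited log2 expression levels for 11325 gene-level features in 2 tables, whose values differ by at most 5.0e-09. The steps from probe signals to these levels (background, normalization, summarising) were not given in the sources used here. Array medians ran from 8.41 to 8.515 and values from 2.74 to 14.06. The number of arrays, 3 per group, limits the precision. Of the features, 10156 had 1 platform symbol, 313 several and 856 none; 10139 with 1 symbol and 1 FlyBase number were named, and 9975 symbols were updated through Entrez numbers in a RefSeq table (assembly Release 6 plus ISO1 MT). The brightest feature stood for each of 22 genes with more than 1, which left 11303. Per the labels, the submitters used limma with an adjusted p under 0.05 and a log2 change of at least 1. Here limma 3.58.1 in R 4.3.3 (lmFit, eBayes, no covariate) was fitted to all 6 arrays, with Benjamini-Hochberg adjustment over 11303 features; "fell" and "rose" mean an adjusted p under 0.05 whatever the fold. The genes and lists were chosen with earlier results of these data known. Genes were named by a rule: genes past the threshold, paralogues, stalk proteins, RpS12, and those with the most extreme levels or changes, and at most 4 past the threshold from each other list. The other ribosomal protein genes named, and Rack1, Dref, M1BP, Trf2, hay, Non1, RIC-3, the Minute response genes that did not pass and the markers, were named outside it, after their values were seen. Alternatives tried were median centring, quantile normalization, a filter on dim features, every feature, the second table, another variance prior, the replicate block and leaving out each array.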

Additional observations from a re-analysis of the deposited data

How the results depend on the processing

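The ribosomal protein genes that fell were 8 in the reported fit, with RpL22-like, whose fall gives no support, among them. They were 15 with a robust variance prior that follows the level (the same 8, with RpL23, RpL27, RpL28, RpL36A, RpS12, RpS18 and RpS27A), 3 to 6 without 1 array, and 6 to 9 under the other settings tried outside the replicate block. Deviations of same-numbered arrays from their group means correlated at −0.13, −0.10 and 0.16, and those of different-numbered arrays at −0.28 to 0.34. With 3 arrays a group these values cannot decide whether the numbers pair the samples. With the replicate number as a block 3 genes fell. No ribosomal protein gene rose in any of these fits, 0 of 39. With median centring the median change was −0.03 over all 39 genes, −0.02 for the large subunit, −0.04 for the small subunit, −0.03 without the suffix -like and −0.07 for the 4 genes with it. With quantile normalization it was −0.06, −0.05 for the large subunit and −0.06 without the suffix, and RpS19b passed (−0.22, limma adjusted p = 0.0316) while RpL37A did not (0.0706). The mean level of RpS19b, 5.94, is near the lowest in the table. Leaving out the 7 brightest genes gave −0.11 for the large subunit, and leaving out features with a mean under 7 gave −0.01 for the suffix -like, where RpL22-like was then not tested. Without 1 array the median was −0.09 to −0.07 over the 39 genes, −0.11 to −0.07 for the small subunit and −0.14 to −0.11 for the suffix -like. Over all features, 979 to 1282 fell without 1 array (1518 with all) and 765 to 1153 rose (1369 with all); 2086 rose with median centring. The setting that left out genes with a mean under 8 and the suffix -like (6 fell) was chosen after seeing the data. The cause of these shifts was not tested. Estimates near 0 changed sign for 13 genes, none of which passed the threshold. With median centring RpS7 (0.00), RpLP1 (0.01), RpL40 (0.01), RpS20 (0.03), RpL15 (0.04), RpL41 (0.04), RpS29 (0.04), RpL7-like (0.05), RpL37-1 (0.05) and RpS28b (0.05) lay above 0. With quantile normalization RpL15 (0.01), RpL41 (0.02), RpS29 (0.00), RpL7-like (0.03), RpL37-1 (0.03) and RpS28b (0.01) lay above and RpS28a (−0.01) and RpL37-2 (−0.02) below. Without 1 array RpL41 ran from −0.03 to 0.02, RpS29 from −0.03 to 0.01, RpS28b from −0.03 to 0.01, RpS28a from −0.02 to 0.05, RpL37-2 from −0.04 to 0.11 and RpS10a from −0.05 to 0.15. With 3 arrays a group and SEs of 0.04 to 0.11, and with 7 genes near the highest value, small changes could be missed. RpS18 (−0.10, limma adjusted p = 0.0209) and RpS27A (−0.09, 0.0434) passed only with the robust variance prior that follows the level.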

Other observations

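Some features carry several platform symbols and were left out of the 39 genes. Of these, 11 include a ribosomal protein symbol, and 9 pair it with a small nucleolar RNA, 7 of them with RpS7. Of the 9, 1 was lower and 0 were higher at an adjusted p under 0.05 in limma, with changes from −0.17 to 0.52. Of all features 13.4% were lower and 12.1% higher. The 7 that include RpS7 had a median change of 0.20 and lay above 0 in 6 of 7, as did 6470 of all 11303 features. None of the 7 passed (lowest limma adjusted p = 0.0504), and since they share the RpS7 symbol they are not separate cases. The feature named for RpS7 alone was at −0.05. Which transcript such a feature measures was not examined here.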
